A study of Homo sapiens with 26 samples.

Results

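The interferon pathway and response genes are a set of 38 genes taken by symbol, all of which were found among the 19128 genes of each knockout table and the 19117 of the parental table. They comprise 4 receptor chains, 1 kinase, 6 transcription factors, 2 RNA sensors and 25 effectors, the genes that act against viruses or limit the response. The RNA came from cultured human lines of small cell lung cancer. In the knockout experiment, NCI-H211, NCI-H1048, NCI-H526 and COR-L311 carried lentiviral guides against POU2F3 (sgPOU2F3e10.1 or sgPOU2F3e10.2), or the control guide sgNeg, for 4 days in NCI-H211 and NCI-H1048 and 5 days in COR-L311 and NCI-H526. The parental set held exponentially growing cells without a guide, 1 library for each of 14 lines: those 4 and DMS114, DMS79, NCI-H128, NCI-H146, NCI-H446, NCI-H510, NCI-H524, NCI-H69, NCI-H82 and NCI-H889. Both arms of the knockout were infected with lentivirus. The labels put NCI-H1048 in HITES medium, NCI-H128 in RPMI with 20% serum and the others in RPMI with 10% serum or HITES, so medium and line cannot be told apart. The same holds for the day of harvest and the line.

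Interferons are cytokines released by cells that sense viral nucleic acid. Type I interferons bind IFNAR1 with IFNAR2, and interferon gamma binds IFNGR1 with IFNGR2. The receptors act through JAK kinases on STAT proteins. STAT2 and IRF9 act in a complex, ISGF3, that binds the interferon-stimulated response element (ISRE) in the promoters of many effector genes. The gamma-activated site (GAS) is a promoter element of genes that respond to interferon gamma. POU2F3 is the lineage factor of tuft cells, and small cell lung cancers that express it form a variant of the disease.

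Levels are FPKM, counts of sequenced fragments scaled to transcript length and to the size of the library, with M below for mega. The authors gave the guides against POU2F3 1 combined value per line, so each line has 1 sgPOU2F3 and 1 sgNeg value and no error of its own. Steps between low values gave an estimated 20.0 to 31.9 M fragments for the combined sgPOU2F3 columns, 10.4 to 16.7 M for sgNeg and 10.7 to 34.7 M for the parental libraries. In sgNeg, 1 fragment on 1 kb of transcript was then worth 0.0599 to 0.0963 FPKM, so an effector below that may be listed at 0 by depth alone. Genes at 0 made up 13.8% to 15.9% of the sgPOU2F3 columns and 18.3% to 21.5% of the sgNeg columns. POU2F3 RNA was at 21.3 FPKM in sgPOU2F3 against 307 in sgNeg cells of NCI-H211, 60.8 against 198 in NCI-H1048, 204 against 501 in NCI-H526, and 218 against 272 in COR-L311. NCI-H211 thus kept the least of its POU2F3 RNA, and COR-L311 the most. With 4 lines, POU2F3 itself, at a mean log2 ratio of -1.77 ± 1.46 over the lines (SD, n = 4), did not pass the test used below (limma adjusted p = 0.40). A guide edits DNA, so the RNA level does not measure the loss of protein. The plasmacytoid dendritic cell markers CLEC4C and IL3RA were at 0 in all 8 knockout columns. LILRA4, also on that list, reached 0.164 FPKM, in sgNeg cells of NCI-H211. Summed leukocyte markers reached 7.72 FPKM in sgPOU2F3 and 4.49 FPKM in sgNeg cells. The highest sgPOU2F3 sum was in NCI-H211, with LYZ at 6.04 FPKM, and the highest sgNeg sum in COR-L311, with CD14 at 4.32 FPKM. CD14 was between 0.955 and 4.32 FPKM in all 8 knockout columns. CD3E was at 0 in sgPOU2F3 and reached 0.0457 FPKM in sgNeg, in NCI-H526.

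The promoters below are shown because most effectors had an ISRE in a promoter, while the receptors and factors mostly did not. RefSeq (GRCh38.p14) gave a window of 300 bases, 250 before and 50 after a start site, for 27 of the 38 genes, 1 of them under the newer symbol of DDX58. Some genes had more than 1 window, 37 in all, and a gene was counted if any of its windows held the element. The ISRE core was searched on both strands as the tetramer GAAA followed by NN and GAAA. It was present for 16 of these 27 genes, in 20 of their 37 promoters, and in 3.57% of 35116 promoters. It was found for 15 of 18 effectors with a promoter and for 1 of 9 receptors, kinases, factors and sensors, IFIH1. The GAS was searched as TTCNNNGAA, which reads the same on both strands. It was present for 8 of the 27 genes, in 9 of their 37 promoters, and in 7.66% of all promoters. The octamer bound by POU factors, ATGCAAAT on either strand, was found in 0 of the 37 promoters of these genes and in 1.77% of all promoters. Capitals mark the ISRE core in IFITM3 (chr11:320811-321110, minus strand), IFITM1 (chr11:313790-314089, plus), IFIT1 (chr10:89392373-89392672, plus, where the core lies on the other strand and is printed as its reverse complement) and ISG15 (chr1:1013247-1013546, plus, where the 2 cores overlap). They mark the GAS in IRF9 (chr14:24161015-24161314, plus) and IFI35 (chr17:43006534-43006833, plus). Motifs were counted separately, whether or not they overlapped. A match describes the letters and shows no binding.
IFITM3: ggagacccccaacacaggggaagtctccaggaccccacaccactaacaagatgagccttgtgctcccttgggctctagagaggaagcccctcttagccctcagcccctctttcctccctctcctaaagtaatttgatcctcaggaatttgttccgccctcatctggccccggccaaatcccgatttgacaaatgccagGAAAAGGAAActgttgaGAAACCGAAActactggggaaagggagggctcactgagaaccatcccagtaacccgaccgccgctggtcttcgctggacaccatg
IFITM1: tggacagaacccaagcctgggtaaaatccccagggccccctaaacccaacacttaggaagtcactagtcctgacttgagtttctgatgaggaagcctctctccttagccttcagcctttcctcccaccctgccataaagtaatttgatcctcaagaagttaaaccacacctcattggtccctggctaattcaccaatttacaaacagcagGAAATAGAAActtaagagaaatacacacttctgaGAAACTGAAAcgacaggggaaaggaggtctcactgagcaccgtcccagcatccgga
IFIT1: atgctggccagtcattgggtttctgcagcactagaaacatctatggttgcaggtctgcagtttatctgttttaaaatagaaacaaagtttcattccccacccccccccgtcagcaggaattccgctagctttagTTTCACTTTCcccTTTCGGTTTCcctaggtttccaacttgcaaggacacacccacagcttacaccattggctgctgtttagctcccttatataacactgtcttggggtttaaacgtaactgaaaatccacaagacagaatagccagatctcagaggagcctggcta
ISG15: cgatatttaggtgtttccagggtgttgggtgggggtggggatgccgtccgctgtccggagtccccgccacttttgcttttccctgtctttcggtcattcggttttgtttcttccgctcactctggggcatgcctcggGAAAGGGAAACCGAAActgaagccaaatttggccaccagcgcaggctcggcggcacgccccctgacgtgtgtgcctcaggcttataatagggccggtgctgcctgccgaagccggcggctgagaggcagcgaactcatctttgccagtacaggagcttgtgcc
IRF9: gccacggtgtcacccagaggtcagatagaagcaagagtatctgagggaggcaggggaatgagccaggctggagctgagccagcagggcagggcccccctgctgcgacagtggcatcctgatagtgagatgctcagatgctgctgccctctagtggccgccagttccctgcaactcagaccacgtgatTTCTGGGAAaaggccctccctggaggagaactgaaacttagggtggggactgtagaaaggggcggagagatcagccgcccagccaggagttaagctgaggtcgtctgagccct
IFI35: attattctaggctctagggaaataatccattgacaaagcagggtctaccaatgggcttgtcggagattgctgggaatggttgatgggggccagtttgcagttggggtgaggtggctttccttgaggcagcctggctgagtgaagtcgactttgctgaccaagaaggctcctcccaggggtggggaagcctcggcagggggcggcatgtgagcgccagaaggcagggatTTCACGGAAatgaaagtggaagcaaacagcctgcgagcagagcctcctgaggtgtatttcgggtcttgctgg
IFITM3 and IFITM1 each hold 2 ISRE cores close to the start, the nearer one beginning 35 and 6 bases before it. In IFIT1 they begin 103 and 116 bases before the start, and in ISG15 107 and 113 bases before it. As given below, IFIT1 RNA was scarce in every line, whereas ISG15 RNA reached 166 FPKM in parental DMS114. The part of motif position in these levels was not tested.

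The first comparison asked what sgPOU2F3 did to these genes across the 4 lines. Of the 38 genes, 26 had at least 1 FPKM in 4 or more of the 8 columns and were tested. None of the 26 passed an adjusted p of 0.05 in limma, where 0.0161% of all 12387 genes tested were called higher and 0% lower. At an unadjusted p under 0.05, 4 of 26 were higher and 0 lower, against 4.67% and 7.08% of all genes. These 4 were IFNGR1, STAT2, IRF9 and IFI35, and they were also the only tested members with the same sign in every line. Higher in 4 of 4 lines were 15.4% of the tested members and 9.81% of all genes, and lower in 4 of 4 lines 0% and 12.9%. The median of the mean log2 ratios was 0.09 over the tested members and -0.02 over all genes. By promoter, 0 of the 11 tested members with an ISRE core were higher in 4 of 4 lines and 9 had a mean log2 ratio above 0, with a median of 0.13. Of the 9 with a promoter but no core, 4 were higher in 4 of 4 lines and 6 had a mean above 0, with a median of 0.32, so these measures did not order the sets the same way.

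**Figure D1:**
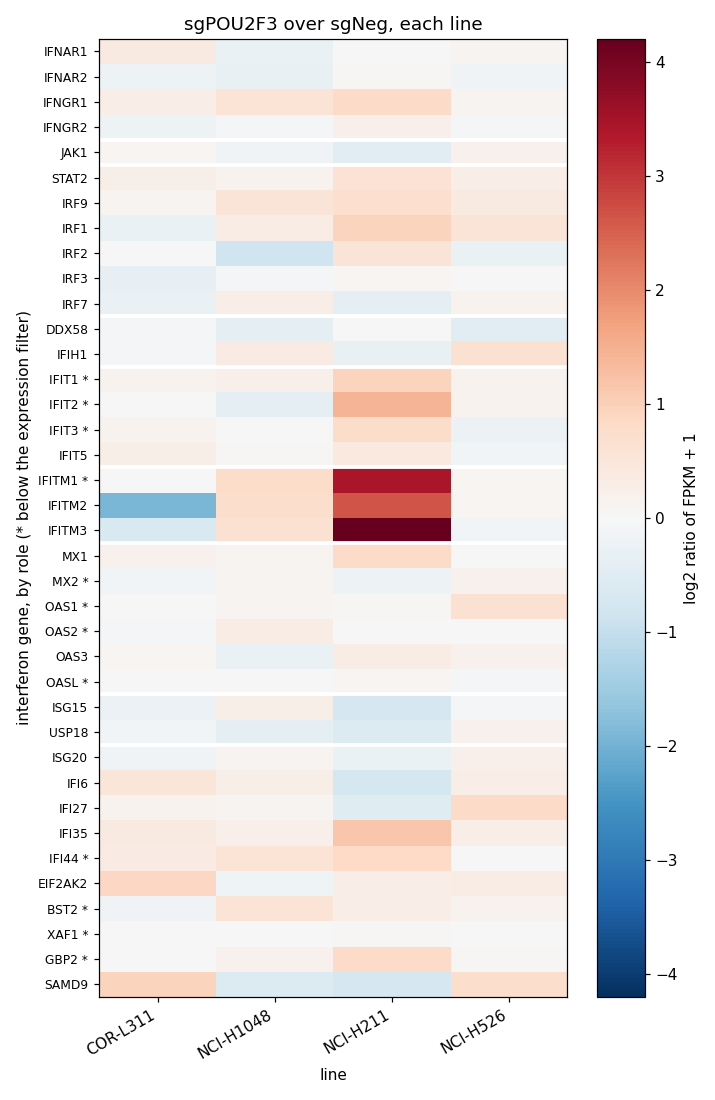
Log2 ratio of FPKM + 1, sgPOU2F3 over sgNeg, for the 38 genes (rows, by role) in each line (columns). Red is higher and blue lower in sgPOU2F3, and an asterisk marks genes below the expression filter. The darkest cells are IFITM3, IFITM1 and IFITM2 in NCI-H211 and IFITM2 in COR-L311.

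Among the receptors, IFNGR1, the ligand-binding chain for interferon gamma, was the one chain with the same sign in every line. IFNGR1 had 33.8 FPKM in sgPOU2F3 against 18.8 in sgNeg cells of NCI-H211, 21.4 against 14.1 in NCI-H1048, 9.86 against 9.12 in NCI-H526 and 24.2 against 19.8 in COR-L311. Each line was higher with sgPOU2F3, least so in NCI-H526. As in all bulk RNA, more cells that express a gene and more RNA per cell cannot be told apart. The mean log2 ratio was 0.44 ± 0.32 (SD, n = 4 lines, limma adjusted p = 0.40). IFNAR1, IFNAR2 and IFNGR2 had mean log2 ratios of 0.06, -0.16 and -0.03, with limma adjusted p of 0.88, 0.58 and 0.94. JAK1, the kinase that all these receptors use, averaged -0.08 ± 0.28 on the same scale (SD, n = 4 lines). Its level was 191 FPKM in sgPOU2F3 and 168 in sgNeg cells of NCI-H526, and between 15.5 and 66.5 FPKM in both arms of the other lines.

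STAT2 and IRF9, which bind DNA together in ISGF3, were both higher in 4 of 4 lines. STAT2 had 22.2 FPKM in sgPOU2F3 against 14.2 in sgNeg cells of NCI-H211, 15.7 against 13.9 in NCI-H1048, 10.7 against 8.59 in NCI-H526 and 13.5 against 11.3 in COR-L311. IRF9 had 14.8 FPKM in sgPOU2F3 against 8.75 in sgNeg cells of NCI-H211, 10.9 against 7.14 in NCI-H1048, 8.51 against 6.30 in NCI-H526 and 7.33 against 6.71 in COR-L311. For both genes the gap was widest in NCI-H211, and the arms overlapped between lines. The mean log2 ratio was 0.32 ± 0.20 for STAT2 (SD, n = 4 lines, limma adjusted p = 0.41). That of IRF9 was 0.44 ± 0.25 (SD, n = 4 lines, limma adjusted p = 0.40). IRF9 shares exonic bases with a gene on its own strand in GENCODE, so its reads may be shared.

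Of the other interferon regulatory factors, IRF1, a factor induced by interferon gamma, was higher in 3 of 4 lines. Its level was 10.3 FPKM in sgPOU2F3 against 4.87 in sgNeg cells of NCI-H211, 4.86 against 3.74 in NCI-H1048, 3.61 against 2.18 in NCI-H526 and 1.87 against 2.46 in COR-L311. The mean log2 ratio was 0.38 ± 0.51 (SD, n = 4 lines, limma adjusted p = 0.51). IRF2, which competes with IRF1 for DNA, had opposite signs in the day 4 lines, at 5.67 FPKM in sgPOU2F3 against 3.56 in sgNeg cells of NCI-H211 and 9.22 against 17.3 in NCI-H1048. IRF3 and IRF7, which switch on interferon genes after viral sensing, had mean log2 ratios of -0.09 ± 0.19 and -0.06 ± 0.32 (SD, n = 4 lines each). IRF7 was below 1 FPKM in both arms of NCI-H211.

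The RNA sensors had mean log2 ratios of opposite sign. DDX58, which encodes RIG-I, averaged a log2 ratio of -0.24 ± 0.24 (SD, n = 4 lines, limma adjusted p = 0.52), with its lowest ratio in NCI-H526, at 12.2 FPKM in sgPOU2F3 and 17.4 in sgNeg cells. IFIH1, which encodes MDA5, averaged 0.14 ± 0.42 (SD, n = 4 lines, limma adjusted p = 0.77), at 10.6 FPKM in sgPOU2F3 and 8.20 in sgNeg cells of NCI-H1048 and 6.61 FPKM in sgPOU2F3 and 8.37 in sgNeg cells of NCI-H211.

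The IFITM genes, which encode small membrane proteins that block virus entry, gave the widest ratios of the set, and they differed by line. In NCI-H211, IFITM3 was at 383 FPKM with sgPOU2F3 against 20.04 with sgNeg, a 19.1-fold difference. IFITM2 was at 289 FPKM in sgPOU2F3 against 45.97 in sgNeg cells there, 6.28-fold, and IFITM1 at 9.85 FPKM in sgPOU2F3 against a listed 0 in sgNeg cells. In NCI-H1048 all 3 genes were also above their control, but by less. There IFITM3 was at 372 FPKM in sgPOU2F3 against 238 in sgNeg cells, IFITM1 at 66.9 against 38.8 and IFITM2 at 1.43 against 0.468. COR-L311 went the other way, with IFITM2 at 4.47 FPKM in sgPOU2F3 against 19.8 in sgNeg cells and IFITM3 at 0.0956 against 0.710. NCI-H526 had IFITM3 at 23.6 FPKM in sgPOU2F3 against 25.6 in sgNeg cells and IFITM2 at 1.66 against 1.49. The lines differed in sign, and the mean log2 ratios of 1.02 ± 2.18 for IFITM3 and 0.38 ± 1.88 for IFITM2 (SD, n = 4 lines) did not pass (limma adjusted p = 0.61 and 0.83). IFITM1 was below the filter. The IFITM genes are close copies of each other, IFITM1 and IFITM2 share exonic bases in GENCODE, and how reads were divided between them is not given in the sources used here.

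**Figure D2:**
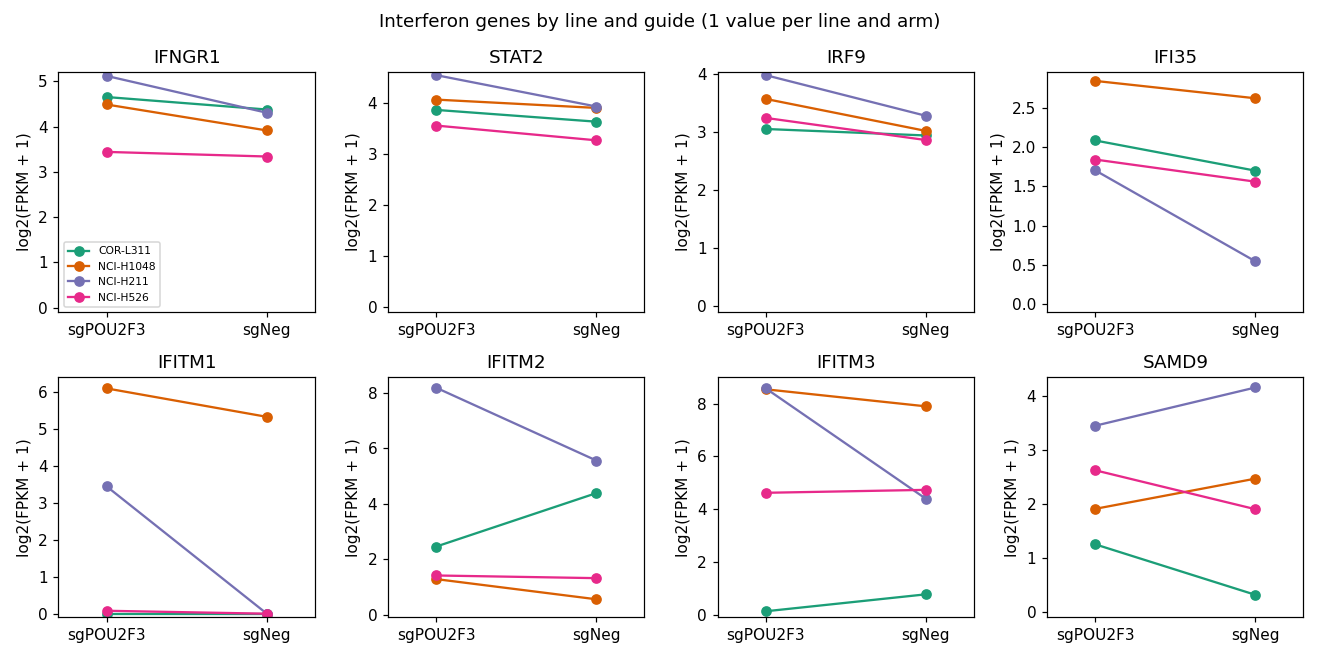
Levels as log2(FPKM + 1) with sgPOU2F3 (left in each panel) and sgNeg (right), 1 point per line and arm, joined by line. IFNGR1, STAT2, IRF9 and IFI35 were higher with sgPOU2F3 in every line, whereas IFITM2, IFITM3 and SAMD9 differed in direction between lines.

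NCI-H211 was the line with the deepest loss of POU2F3 RNA, and other marker lists differed between its arms as well. The 6 tuft cell markers summed to 135 FPKM in sgPOU2F3 and 1596 FPKM in sgNeg cells, and the 5 epithelial markers to 3264 FPKM in sgPOU2F3 and 1188 FPKM in sgNeg cells. Of the epithelial markers, KRT8 was at 1375 FPKM in sgPOU2F3 against 299.6 in sgNeg cells and KRT18 at 1064 against 261, while EPCAM was at 500.3 against 533. Its summed fibroblast markers were at 16.3 FPKM in sgPOU2F3 and 8.36 FPKM in sgNeg cells, with LUM at 12.3 FPKM in sgPOU2F3 and 0.101 in sgNeg cells and DCN at 0.537 FPKM in sgPOU2F3 and 7.26 in sgNeg cells. These 2 markers thus differed in opposite directions. The leukocyte marker LYZ was at 6.04 FPKM in sgPOU2F3 and 0.514 in sgNeg cells of this line. The part of these differences in the IFITM result was not tested.

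The genes around the IFITM cluster on chromosome 11 were read in RefSeq order, a set chosen after its values were seen. In NCI-H211 the next 3 genes beyond IFITM3 were B4GALNT4 at 52.9 FPKM in sgPOU2F3 against 59.4 in sgNeg cells, PKP3 at 74.8 against 71.6 and SIGIRR at 27.6 against 43.6. On the side of IFITM2, IFITM5 was at 0.440 FPKM in sgPOU2F3 against 0 in sgNeg cells, NLRP6 at 0.247 against 0 and PSMD13 at 76.9 against 86.8. None of these 6 neighbours reached a log2 ratio of 1 in either direction in NCI-H211. IFITM5 and NLRP6, below 1 FPKM in both arms, could not have reached it with a pseudocount of 1, so the rule does not inform on them. In COR-L311, where IFITM2 was lower, B4GALNT4 was at 64.3 FPKM in sgPOU2F3 against 116 in sgNeg cells and PKP3 at 41.4 against 91.7, with log2 ratios of -0.84 and -1.13.

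**Figure D3:**
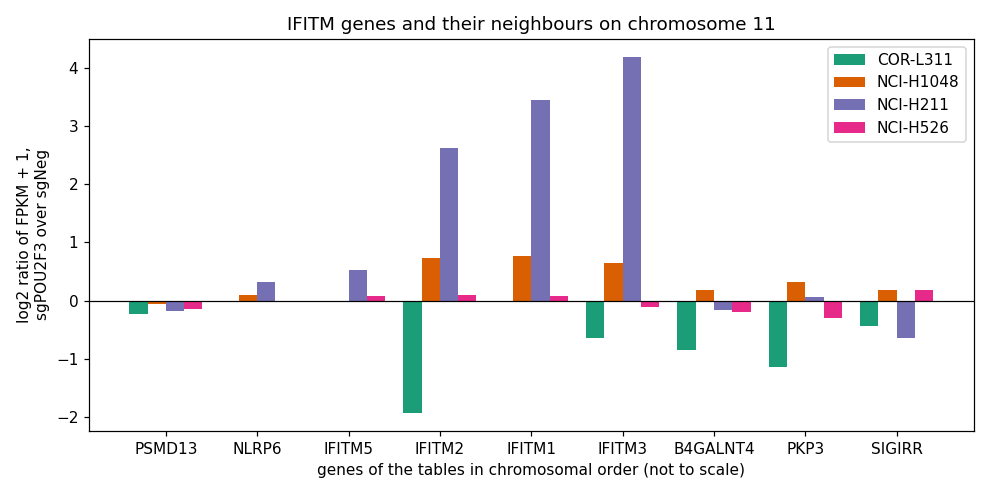
Log2 ratio of FPKM + 1, sgPOU2F3 over sgNeg, for the IFITM genes and 3 neighbouring genes of the tables on either side in chromosomal order, with 1 bar per line. In NCI-H211 the ratios were 2.63 for IFITM2, 3.44 for IFITM1 and 4.19 for IFITM3, and between -0.64 and 0.53 for the 6 neighbours. Of these, IFITM5 and NLRP6 were below 1 FPKM in both arms, where this scale cannot show a ratio of 1.

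The IFIT genes, whose products bind foreign RNA, were scarce apart from IFIT5. Across the 8 columns IFIT1, IFIT2 and IFIT3 reached at most 2.79 FPKM, and all 3 were below the filter. In NCI-H211, IFIT2 was at 2.23 FPKM in sgPOU2F3 against 0.204 in sgNeg cells, IFIT1 at 1.38 against 0.253 and IFIT3 at 0.691 against a listed 0. NCI-H1048, in which IFIT3 was at 2.79 FPKM in sgPOU2F3 against 2.71 in sgNeg cells and IFIT2 at 1.32 against 1.98, showed no such gap. Of the 38 genes, 0 were listed at 0 in sgPOU2F3 and 8 in sgNeg cells of NCI-H211. Of all genes in that line, 13.96% were listed at 0 in sgPOU2F3 and 21.53% in sgNeg cells. The estimated depth of its sgPOU2F3 column was the higher, and the part of depth in these counts was not tested. IFIT5 was tested and averaged a log2 ratio of 0.14 ± 0.23 (SD, n = 4 lines, limma adjusted p = 0.70).

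The MX genes encode dynamin-like GTPases that trap viruses, and the OAS genes encode enzymes that activate RNase L. Their levels differed between lines over a wider range than between the arms of a line. MX1 was at 3.97 FPKM in sgPOU2F3 against 1.84 in sgNeg cells of NCI-H211, 29.5 against 27.5 in NCI-H1048, 5.00 against 5.10 in NCI-H526 and 0.479 against 0.318 in COR-L311, and the ratios averaged 0.26 ± 0.37 on the log2 scale (SD, n = 4 lines, limma adjusted p = 0.57). MX2 was at 11.6 FPKM in sgPOU2F3 and 10.1 in sgNeg cells of NCI-H526 and at most 0.314 FPKM elsewhere. OAS3 was at 15.6 FPKM in sgPOU2F3 and 19.1 in sgNeg cells of NCI-H1048, at 10.5 FPKM in sgPOU2F3 and 9.12 in sgNeg cells of NCI-H526, and at most 0.320 FPKM in the other lines. OAS1 exceeded 1 FPKM in NCI-H526 alone among these lines, at 4.01 FPKM in sgPOU2F3 and 2.23 in sgNeg cells, and OAS2 in NCI-H1048 alone, at 1.74 FPKM in sgPOU2F3 and 1.20 in sgNeg cells. OASL reached 0.173 FPKM.

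ISG15, a ubiquitin-like protein, and USP18, the protease that removes it, were both lower with sgPOU2F3 in 3 of 4 lines. ISG15 had 42.1 FPKM in sgPOU2F3 against 69.8 in sgNeg cells of NCI-H211, 14.2 against 11.7 in NCI-H1048, 34.1 against 36.3 in NCI-H526 and 85.99 against 103 in COR-L311. USP18 had 5.64 FPKM in sgPOU2F3 against 8.98 in sgNeg cells of NCI-H211, 4.55 against 6.28 in NCI-H1048, 5.57 against 4.84 in NCI-H526 and 11.03 against 12.03 in COR-L311. Their mean log2 ratios were -0.20 ± 0.40 and -0.23 ± 0.33 (SD, n = 4 lines each, limma adjusted p = 0.63 and 0.58). In NCI-H211, then, ISG15 and USP18 were lower in the same cells in which the IFITM genes were higher.

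IFI35, a regulator of innate immune signaling, was higher in 4 of 4 lines. Its level was 2.26 FPKM in sgPOU2F3 against 0.460 in sgNeg cells of NCI-H211, 6.17 against 5.15 in NCI-H1048, 2.58 against 1.95 in NCI-H526 and 3.24 against 2.25 in COR-L311. The mean log2 ratio was 0.51 ± 0.44 (SD, n = 4 lines, limma adjusted p = 0.41), and it was 0.30 without NCI-H211. SAMD9, an antiviral factor that restricts poxviruses, split by line, at 9.94 FPKM in sgPOU2F3 against 16.9 in sgNeg cells of NCI-H211 and 2.76 against 4.55 in NCI-H1048, but 5.18 against 2.74 in NCI-H526 and 1.39 against 0.247 in COR-L311. EIF2AK2, which encodes the RNA-activated kinase PKR, was at 5.01 FPKM in sgPOU2F3 against 2.28 in sgNeg cells of COR-L311 and averaged a log2 ratio of 0.32 ± 0.44 (SD, n = 4 lines, limma adjusted p = 0.52). IFI6, IFI27 and ISG20 had mean log2 ratios between -0.02 and 0.13, and all 3 had their lowest ratio in NCI-H211. IFI44, BST2, XAF1 and GBP2 were below the filter. IFI44 was at 3.77 FPKM in sgPOU2F3 and 2.20 in sgNeg cells of NCI-H1048, and GBP2 at 0.808 FPKM in sgPOU2F3 and 0.0244 in sgNeg cells of NCI-H211, while XAF1 reached 0.0255 FPKM. BST2, the tethering protein of budding virus, was at 9.77 FPKM in sgPOU2F3 and 6.32 in sgNeg cells of NCI-H1048 and at most 0.225 FPKM elsewhere.

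Within a line, where no test was possible, members were counted past a fixed size, 1 on the log2 scale. In NCI-H211, 3 of the 26 tested members were higher by that size (IFITM2, IFITM3 and IFI35), 11.5% against 4.87% of all genes, and 0 were lower, against 4.26%. In COR-L311, 0 were higher and 1 lower (IFITM2), where 2.81% and 1.92% of all genes were. NCI-H1048 and NCI-H526 had 0 in either direction, where 0.767% and 0.783% of all genes in NCI-H1048 and 1.39% and 0.388% in NCI-H526 were higher and lower. The tested members had a median log2 ratio of 0.17 in NCI-H526, 0.15 in NCI-H211, 0.10 in NCI-H1048 and 0.05 in COR-L311. Each was above the median of all genes in its line, which lay between -0.03 and 0.00.

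A list of 69 other genes of the pathway was examined in the same fit, of which 42 were tested. None passed the adjusted threshold, and at an unadjusted p under 0.05, 3 were higher and 1 lower, against 4.67% and 7.08% of all genes. IRF2BP2, a corepressor that binds IRF2, had the smallest p, with log2 ratios of 0.64 to 0.90 in every line and a mean of 0.81 ± 0.12 (SD, n = 4 lines, limma adjusted p = 0.21). TAP1, the peptide transporter of antigen presentation, had a mean of -0.29 ± 0.14, and SOCS1, an inhibitor of JAK kinases, one of 0.41 ± 0.28 (SD, n = 4 lines each, limma adjusted p = 0.40 and 0.42). TMEM173, which encodes the DNA-sensing adaptor STING, was at 19.0 FPKM in sgPOU2F3 and 2.65 in sgNeg cells of NCI-H526, and averaged a log2 ratio of 0.96 ± 1.04 (SD, n = 4 lines, limma adjusted p = 0.42). In NCI-H211, 6 of the 42 reached a log2 ratio of 1 and 0 reached -1, against 4.87% and 4.26% of all genes. Among the 6 were SOCS3, at 23.9 FPKM in sgPOU2F3 against 1.59 in sgNeg cells, and PARP9, at 19.1 against 6.41, examples chosen after their values were seen. The interferon genes on this list were scarce: over all 22 columns of the series IFNB1 reached 0.384 FPKM, IFNL1 0.251, IFNG 0.093 and IFNE 1.12. Other interferon genes were not examined.

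The second comparison asked how the 4 knockout lines differed from the 10 others before any guide was given. How these 4 were picked is not given in the sources used here. In them, POU2F3 was at 189 to 387 FPKM, and in the others at most 0.608 FPKM. Of the 38 interferon genes, 29 had at least 1 FPKM in 4 or more of the 14 libraries and were tested. None passed the adjusted threshold in limma, where 0.212% of 13226 genes were called higher and 0.0378% lower. At an unadjusted p under 0.05, 3 were higher (JAK1, DDX58 and MX1) and 0 lower, against 4.6% and 4.06% of all genes. For 0 of the 29 did the groups separate without overlap, where 0.401% of all genes did in the higher and 0.25% in the lower direction. The median difference, knockout lines minus others, was 0.30 on the log2 scale over the tested members and 0.00 over all genes. Without NCI-H1048 it was 0.10 over the members and -0.01 over all genes, and with no expression filter 0.09 over the members.

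DDX58 had the smallest p of the set. Its level was 3.27 FPKM in NCI-H211, 8.26 in NCI-H1048, 15.4 in NCI-H526 and 9.73 in COR-L311, against a lowest value of 0.239, a median of 2.59 and a highest value of 7.12 in the 10 others. Except for NCI-H211, the knockout lines lay above every other line. The difference was 1.47 on the log2 scale (SE 0.49, limma adjusted p = 0.34). JAK1 was at 67.1 FPKM in NCI-H211, 18.4 in NCI-H1048, 109 in NCI-H526 and 21.5 in COR-L311, against 5.04, 18.6 and 37.9 as the lowest, median and highest of the others. Its difference of 1.22 (SE 0.53, limma adjusted p = 0.52) was 0.76 without NCI-H526. NCI-H211 and NCI-H526 lay above every other line, and NCI-H1048 and COR-L311 within their range. MX1 was at 3.44 FPKM in NCI-H211, 21.6 in NCI-H1048, 7.34 in NCI-H526 and 0.158 in COR-L311, against 0, 0.376 and 12.6 as the lowest, median and highest of the others. The groups overlapped, since COR-L311 was low and DMS79 high, and the difference of 1.62 (SE 0.73, limma adjusted p = 0.55) was 0.94 without NCI-H1048.

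ISG15 had the widest range of any member over the 14 lines. It was at 76.1 FPKM in NCI-H211, 11.7 in NCI-H1048, 38.04 in NCI-H526 and 50.9 in COR-L311, against a listed 0 in NCI-H82, a median of 2.67 and 166 FPKM in DMS114. All 4 knockout lines exceeded the median of the others, but DMS114, NCI-H510 at 70.2 and DMS79 at 46.97 FPKM overlapped them. The difference was 2.46 (SE 1.20, limma adjusted p = 0.60). IFITM3, next in range, was at 13.98 FPKM in NCI-H211, 123 in NCI-H1048, 10.03 in NCI-H526 and 0.205 in COR-L311, against 0.0858, 1.08 and 51.6 as the lowest, median and highest of the others. COR-L311 stood with the low lines, and DMS114 was the highest of the others. The difference was 1.95 (SE 1.11, limma adjusted p = 0.68).

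**Figure D4:**
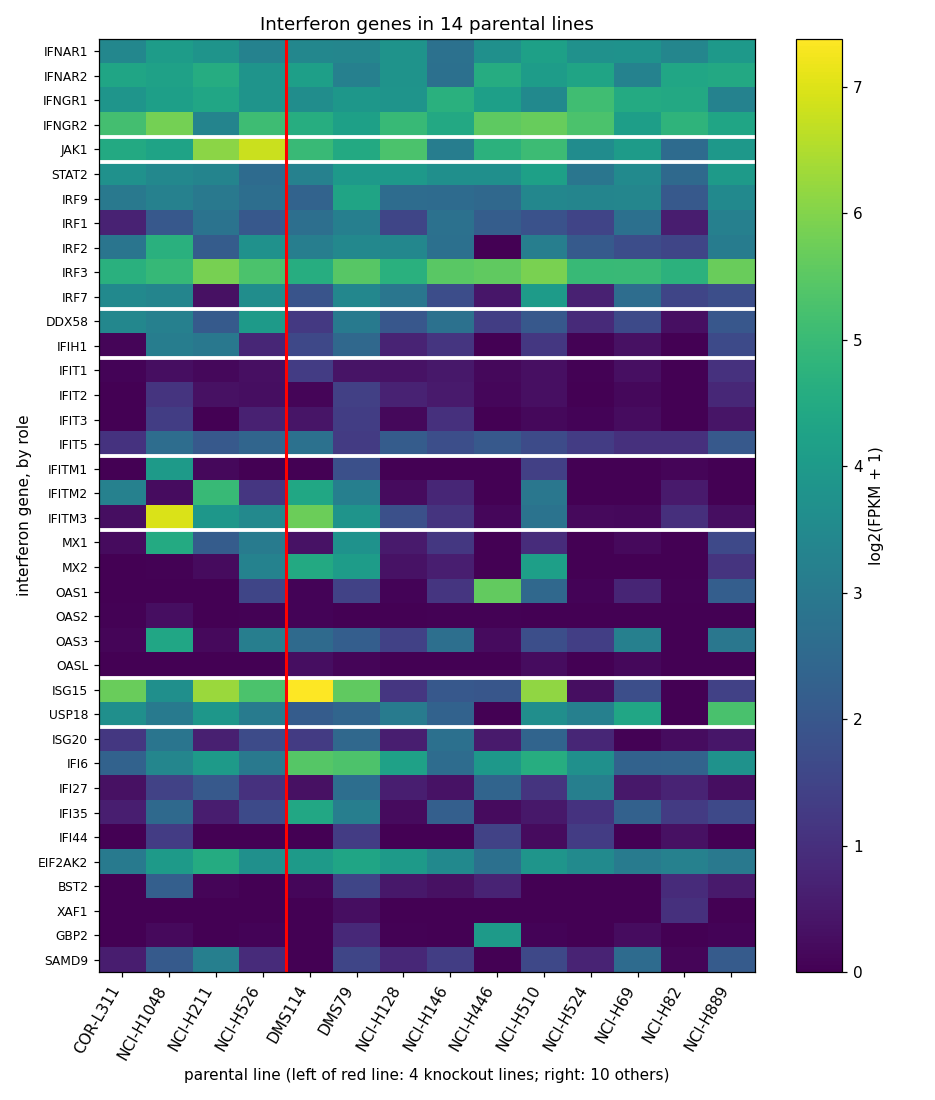
Level as log2(FPKM + 1) of the 38 genes (rows, by role) in the 14 parental libraries (columns), the 4 knockout lines left of the red line and the 10 others right of it. Receptors and IRF3 were expressed in every line, while ISG15 ran from a listed 0 in NCI-H82 to 166 FPKM in DMS114.

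Receptors and effectors differed in how evenly they were expressed. All 4 receptor chains, JAK1, STAT2, IRF9, IRF3, IFIT5, IFI6 and EIF2AK2, 11 of the 38 genes, were at 1 FPKM or more in each of the 14 libraries. The other factors were each below 1 FPKM in some line, and IRF2 ran from a listed 0 in NCI-H446 to 24.8 FPKM in NCI-H1048. IFIT1, IFIT2, IFIT3, IFITM1, OAS2, OASL, IFI44, BST2, XAF1 and GBP2 were below 1 FPKM in at least 10 of 14 libraries. Of the 25 effectors, NCI-H1048 had 17 at 1 FPKM or more, NCI-H526 14, NCI-H211 10 and COR-L311 7, while the others ran from 6 in NCI-H82 to 20 in DMS79. NCI-H1048 and DMS79 thus expressed the most effectors, and NCI-H82 the fewest.

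**Figure D5:**
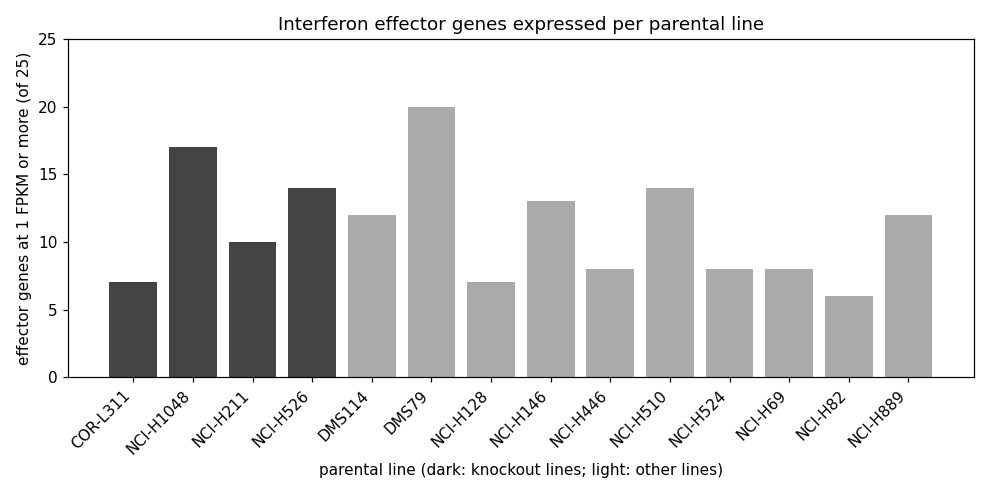
Number of the 25 effector genes at 1 FPKM or more in each parental library, with the 4 knockout lines in dark grey and the 10 others in light grey. The count was 17 in NCI-H1048 and 20 in DMS79, and 6 in NCI-H82.

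Wide ranges also came from effectors that were high in a few lines. USP18 was at 13.97 FPKM in NCI-H211, 7.31 in NCI-H1048, 7.43 in NCI-H526 and 11.7 in COR-L311, against 0, 5.84 and 37.4 as the lowest, median and highest of the others, with its top in NCI-H889. MX2 was at 0.171 FPKM in NCI-H211, 0.0343 in NCI-H1048, 8.73 in NCI-H526 and 0 in COR-L311, against 0, 0.409 and 21.4 in the others, with its top in DMS114. OAS1 was at 48.1 FPKM and GBP2, a guanylate-binding protein induced by interferon gamma, at 15.1 FPKM in NCI-H446. In the other 13 lines GBP2 did not exceed 0.795 FPKM and OAS1 did not exceed 4.66 FPKM. NCI-H446 also had the highest summed endothelial markers, at 64.3 FPKM, with CDH5 at 63.8 but VWF at 0.436 and PECAM1 at 0.0466 FPKM. DMS114, the line with the most ISG15, had the highest summed fibroblast markers, at 886 FPKM. There COL3A1 was at 512, LUM at 284 and DCN at 89.1 FPKM, but COL1A1 at 1.19 FPKM and COL1A2 at a listed 0. The part of these markers in the interferon genes was not tested. IFITM1 was at 15.2 FPKM in NCI-H1048, 2.51 in DMS79 and 1.61 in NCI-H510, and at most 0.116 FPKM elsewhere. In NCI-H1048, IFITM3 and IFITM1 were thus present before any guide, and in NCI-H211 the parental level was 13.98 FPKM for IFITM3 and 30.3 for IFITM2. These parental values come from another table than the knockout values and were not tested against them.

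Across the 14 lines the pairs of effector genes ran from a Pearson correlation of -0.46 to 0.88, on log2(FPKM + 1). Over 120 pairs of tested effectors the median was 0.22, with 19 pairs above 0.5. Pairs of all genes were not computed, so whether these values are high or low for the series is not known. The highest was that of IFITM2 with ISG15, at 0.88 (Spearman 0.84, n = 14 lines), with IFITM2 listed at 0 in 4 libraries. IFI27 with IFI44 followed at 0.81 (Spearman 0.73), but IFI44 was listed at 0 in 7 libraries and reached only 1.74 FPKM. Among all tested members, IFIH1 with MX1 came next at 0.80 (Spearman 0.88). These are descriptions over libraries that share a table and differ in depth.

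The 69 other pathway genes were examined in the parental fit too. Of 46 tested, 0 passed the adjusted threshold, and 8 were higher and 0 lower at an unadjusted p under 0.05, against 4.6% and 4.06% of all genes. The smallest p were those of TAP1 (difference 3.09, SE 0.90, limma adjusted p = 0.23), NLRC5, an activator of MHC class I genes (1.75, SE 0.56, limma adjusted p = 0.30), and PSMB8, a subunit of the immunoproteasome (2.97, SE 0.98, limma adjusted p = 0.33). TAP1 was at 5.12 to 44.97 FPKM in the 4 knockout lines, against a lowest value of 0, a median of 0.576 and a highest value of 33.9 FPKM in the others. PARP9, which acts with DTX3L in the interferon response, followed with a difference of 1.54 (SE 0.58, limma adjusted p = 0.44). The groups overlapped for all 46 genes, and were separate in the higher direction for 0.401% and in the lower for 0.25% of all genes.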

How the data were processed

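RNA was measured by polyA-selected sequencing in 26 libraries, 8 with sgPOU2F3, 4 with sgNeg and 14 parental. The deposited values are FPKM, per the file headers, in 5 tables, and the labels call the parental one RPKM. The submitters' processing notes name TopHat2, Cufflinks, Cuffdiff and hg19, and the counting, annotation, strand setting and scaling are not given in the sources used here. Both guides share 1 deposited column per line, so the line was the replicate, and the p-values measure the spread between lines. The 38 members and the other lists were chosen with earlier results of these data known.

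Values were taken as log2(FPKM + 1), a scale that understates the change of low genes. Genes were kept where 4 or more columns reached 1 FPKM, and fitted with limma 3.58.1 in R 4.3.3, with a variance trend. The knockout fit had terms for line and arm, with 3 residual degrees of freedom, and the parental fit compared 4 lines with 10. Arms were paired within a line because they are the same cells. P-values were adjusted over all genes tested (Benjamini-Hochberg, two-sided, threshold 0.05). Depth was estimated from the 5% lowest steps of genes with 1 transcript in GENCODE (GRCh38). Values were given for members past the threshold, of 1 sign in all lines, past a log2 ratio of 1, or of widest parental range, and for up to 4 other pathway genes of smallest p. By GENCODE, 12 members share exonic bases with a gene of the other strand, among them EIF2AK2, IFITM3, IRF1, ISG15, JAK1 and MX1, and 6 with 1 of the same strand. The fits were tested on simulated data. Alternatives were another pseudocount, other filters, quantile normalization, centring, no trend, no line term and leaving out each line.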

Additional observations from a re-analysis of the deposited data

Results flagged for a closer look

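Among 84 groups of 4 to 10 values, 6 held a library far from the rest of its group, where chance gives about 1 in 20. Among the 4 knockout lines these were IRF7 at 0.256 FPKM in NCI-H211, MX2 at 8.73 and OAS1 at 1.93 FPKM in NCI-H526, and IFI44 at 1.49 FPKM in NCI-H1048. Among the 10 other lines they were MX1 at 12.6 FPKM in DMS79 and OAS1 at 48.1 FPKM in NCI-H446. Within the 4 knockout lines, OAS1 and IFI44 were listed at 0 in every line but the flagged one. Any level above 0 then stands far from the rest, so the rate of 1 in 20 does not hold for them.

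Another 4 of the 26 tested members had opposite signs in both day 4 lines and both day 5 lines, as did 12.6% of all 12387 genes. The mean log2 ratio of the day 4 lines minus that of the day 5 lines was 2.79 for IFITM3, -1.46 for SAMD9, -0.43 for JAK1 and -0.39 for IFNAR1. These differences were not tested, and day and line cannot be told apart.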

How the results depend on the processing

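No member passed the threshold in the knockout or the parental fit under any alternative run. That includes the fit without the replicate block (no line term), in which 0 passed. No paired analysis was possible because the guides share 1 column per line, beyond the pairing of arms within a line that the fit already holds. The median log2 ratio of the tested members, 0.09, was 0.21 with a pseudocount of 0.1 and 0.0158 with a filter at an FPKM of 5. It ran from -0.0164 without NCI-H526 to 0.17 without NCI-H1048. The members with 1 sign in all lines, 4 of 26, numbered 6 to 9 when a line was left out, most without NCI-H211 (9 of 24) and then NCI-H526 (7 of 25), where 3 lines in place of 4 had to share a sign. Of all genes, 22.7% had 1 sign in all 4 lines, 32.6% without NCI-H211 and 31.1% without NCI-H526. With a pseudocount of 0.1, the members at a log2 ratio of at least 1 were, of 26, 2 higher and 2 lower in COR-L311 (5.59% and 3.30% of all genes), 1 higher in NCI-H1048 (1.45%), 6 higher in NCI-H211 (7.02%) and 2 higher in NCI-H526 (2.62%). In NCI-H211 there were 5 of 38 with no filter (4.72% of all genes) and 1 of 18 with a filter at an FPKM of 5 (3.53%), under which COR-L311 had 0 lower (1.79%). The parental groups separated for 0 to 1 members when a line was left out: DDX58, higher, without NCI-H211, and OAS1, lower, without NCI-H526 (1.35% and 1.32% of all genes separated). Under the alternatives the mean log2 ratio was 0.32 to 0.55 for IFNGR1, 0.23 to 0.38 for STAT2, 0.35 to 0.55 for IRF9 and 0.30 to 0.81 for IFI35. Their adjusted p ranged from 0.359 to 0.999988. Depth limits statements on OASL and XAF1, which reached 0.173 FPKM at most in the knockout columns, and on any member listed at 0.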
